A study of Mus musculus with 7 samples.

Results

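Lipolysis, the breakdown of stored triglyceride to fatty acids and glycerol, was followed through 9 genes in mammary glands of mice fed conjugated linoleic acid (CLA). They were named by role, with earlier results of these data known, and cover the triglyceride, diglyceride and monoglyceride lipases (Pnpla2, Lipe, Mgll), the activator and the inhibitor of Pnpla2 (Abhd5, G0s2), receptors (Adrb3, Adora1), the cAMP-degrading enzyme Pde3b and the glycerol channel Aqp7. Of these 9 genes, 7 were found among the 18193 genes with a probe set of 1 symbol, on 15 probe sets. Adrb3 and Adora1 were not analysed here, so no adrenergic or adenosine receptor stands behind any value below. Each gene is represented by its brightest probe set, and 6 of the 7 were bright enough to be tested.

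The mice were virgin FVB females carrying the polyoma middle T antigen (PyV-MT) as a transgene that gives rise to mammary tumours, so both diet groups carry the oncogene and non-transgenic glands are not part of the comparison. From 4 weeks of age they ate control AIN93G chow or chow with 1% CLA, a mixture of linoleic acid isomers, for 4 weeks, and glands were taken at 8 weeks of age. The study gave control chow to 5 mice and CLA to 6. There are 3 control and 4 CLA Affymetrix arrays, and each was taken to hold whole-gland RNA of a different mouse. With so few arrays, every value is of limited precision.

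In adipocytes a fatty acid is taken off at each step. Pnpla2 (adipose triglyceride lipase) acts on triglyceride, Lipe (hormone-sensitive lipase) on diglyceride and Mgll (monoglyceride lipase) on monoglyceride, and the glycerol left over leaves through Aqp7. Catecholamines act through beta-adrenergic receptors to raise cAMP, which activates protein kinase A and through it Lipe and the droplet coat. Insulin opposes this through Pde3b, which degrades cAMP, and adenosine through the inhibitory receptor Adora1. The mammary gland lies in a fat pad, so whole-gland RNA holds adipocyte RNA beside that of epithelium, stroma and, where muscle is included, muscle.

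The deposited values are MAS5 signals, a linear brightness per probe set that the authors scaled to an equal trimmed mean of 500.003 on each array. Changes are CLA minus control on the log2 scale, from limma across the 12497 genes with a mean signal of at least 57.7, with 0 genes called in either direction at an adjusted p under 0.05 (0% lower, 0% higher). At an unadjusted p under 0.05, 3.01% of the genes tested were lower and 2.38% higher in CLA glands. Array titles carry numbers that start with 27 (control replicate 1 and CLA replicate 1) or 28 (the other arrays), treated here as a possible batch and called the 27 titles and the 28 titles. RNA integrity was read from Actb control probes as the signal at the 3′ end over that at the 5′ end, which was 2.78 for CLA replicate 3 and 1.41 to 1.88 for the rest.

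Promoter sequence is shown for Pnpla2 and Mgll and for the Pnpla2 cofactors Abhd5 and G0s2. The cofactors had smaller estimated changes, a difference that was not tested. The lines give the 250 bases before an annotated transcript start, from the RefSeq table of build GRCm38.p6 (strain C57BL/6J, not the FVB strain studied), written along the gene's own strand. Windows of 300 bases (250 before and 50 after the start) were searched on both strands for the PPAR response element (a direct repeat with a spacer of 1 base), its repeated unit AGGTCA, the cAMP response element TGACGTCA, its core TGACG, and the TATA box TATAAA. Capitals mark matches. AGGTCA lies within the PPAR element and TGACG within the cAMP response element, so a long match also counts for the short motif.
Pnpla2 (chr7:141454938-141455187, plus strand): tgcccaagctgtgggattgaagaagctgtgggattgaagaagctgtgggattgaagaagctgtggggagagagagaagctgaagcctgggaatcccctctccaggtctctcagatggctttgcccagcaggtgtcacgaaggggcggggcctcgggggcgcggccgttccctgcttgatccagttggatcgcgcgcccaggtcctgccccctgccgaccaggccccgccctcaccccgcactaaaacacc
Mgll (chr6:88724162-88724411, plus strand): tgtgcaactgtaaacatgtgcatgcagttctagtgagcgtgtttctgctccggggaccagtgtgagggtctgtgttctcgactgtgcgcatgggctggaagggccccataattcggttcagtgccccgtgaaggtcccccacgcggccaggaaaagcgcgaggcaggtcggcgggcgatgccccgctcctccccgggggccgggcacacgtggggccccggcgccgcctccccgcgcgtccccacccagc
Abhd5 (chr9:122351366-122351615, plus strand): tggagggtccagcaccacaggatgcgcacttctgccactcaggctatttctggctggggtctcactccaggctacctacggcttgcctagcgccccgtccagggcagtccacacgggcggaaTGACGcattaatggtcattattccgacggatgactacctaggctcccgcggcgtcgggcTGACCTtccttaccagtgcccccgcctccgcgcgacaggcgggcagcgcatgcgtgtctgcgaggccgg
G0s2 (chr1:193273189-193273438, minus strand): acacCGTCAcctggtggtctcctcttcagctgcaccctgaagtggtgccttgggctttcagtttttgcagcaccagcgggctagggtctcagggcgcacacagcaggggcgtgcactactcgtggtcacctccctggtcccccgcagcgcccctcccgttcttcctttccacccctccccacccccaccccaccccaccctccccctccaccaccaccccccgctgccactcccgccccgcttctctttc
Abhd5 held a TGACG match that begins 128 bases before the start and an AGGTCA match, read on the other strand, that begins 69 bases before it. The G0s2 window held TGACG on the other strand, 246 bases before the start. The Pnpla2 window and both Lipe windows held none of the motifs, and of the 2 Mgll windows the one printed held none while the other had TGACG on the other strand, 20 bases after its start. The Aqp7 windows held AGGTCA on the other strand, and the Adora1 windows held no motif. In all, 11 windows covered 7 of the 9 genes. Of all 32851 windows, 16.3% hold AGGTCA, 20.8% TGACG, 13.6% TATAAA, 1.79% TGACGTCA and 0.0396% the PPAR element, so the AGGTCA and TGACG matches are common ones and describe letters alone.

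The 3 lipases all had lower mean signal in CLA glands, by similar amounts on the log2 scale. Pnpla2 read 3328, 5133 and 4309.9 in control replicates 1 to 3 and 1663, 2569, 2397 and 2763 in CLA replicates 1 to 4. Every CLA gland lay below every control gland, and CLA replicate 1 was the lowest. The group means were 4257 ± 903 (SD, n = 3) and 2348 ± 480 (SD, n = 4), 1.82-fold lower by the mean log2 values. The log2 change of Pnpla2 was -0.86 ± 0.21 (SE), with a 95% interval from -1.33 to -0.39, an unadjusted limma p of 0.00224 and an adjusted p of 0.637 over all genes, so it did not pass. It was -1.00 within the 27 titles, a comparison of single arrays, -0.87 within the 28 titles, and -0.91 with this number as a block. As the mean of its probe sets, a dim one included, it was -0.51. In bulk tissue, fewer adipocytes and less of these transcripts per adipocyte cannot be told apart.

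Lipe read 1240.4, 1163 and 877 in control glands and 572, 558, 362 and 891 in CLA glands. The groups overlapped through a single pair, CLA replicate 4 just above control replicate 3, and CLA replicate 3 was the lowest. The group means were 1093 ± 191 (SD, n = 3) and 596 ± 219 (SD, n = 4). Lipe had a log2 change of -0.93 ± 0.28 (SE), with a 95% interval from -1.56 to -0.31, an unadjusted limma p of 0.00793 and an adjusted p of 0.703. With any 1 array left out the change ran from -1.15, without CLA replicate 4, to -0.72, without CLA replicate 3. The limma adjusted p was 0.205 and 0.815 in these fits. CLA replicate 3 also had the highest Actb 3′ to 5′ ratio, and the part of RNA integrity in the Lipe value was not tested. Within the 28 titles the log2 change was -0.84, where the unadjusted limma p was 0.0561, and within the 27 titles it was -1.12. As the mean of its probe sets it was -1.21, with an unadjusted limma p of 0.0814.

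Mgll, whose substrate range also includes the endocannabinoid 2-arachidonoylglycerol, read 3421, 3917 and 3805 in control glands. In CLA glands it read 1279, 3010.2, 2112 and 2140.1. All CLA glands were below all control glands, with CLA replicate 1 lowest and CLA replicate 2 closest to the controls. The group means were 3714 ± 260.1 (SD, n = 3) and 2135 ± 707 (SD, n = 4), so the CLA glands spread more. The log2 change of Mgll was -0.86 ± 0.25 (SE), with a 95% interval from -1.41 to -0.31, an unadjusted limma p of 0.00634 and an adjusted p of 0.695. It was -1.42 within the 27 titles and -0.69 within the 28 titles. As the mean of its probe sets it was -0.49, with an unadjusted limma p of 0.0803.

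Mgll was the member with most probe sets, 4, and its 3 bright ones gave like values. Their log2 differences were -0.86, -0.88 and -0.78, and on each the groups did not overlap. The fourth was dim, with signals from 7.81 to 79.1, overlapping groups and a difference of 0.56. The second probe sets of Pnpla2 (30.1 to 76.5) and Lipe (1.77 to 92.4) were also dim and overlapped between the diets, with differences of -0.16 and -1.48. These dim sets add no independent reading of the lipases.

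**Figure D1:**
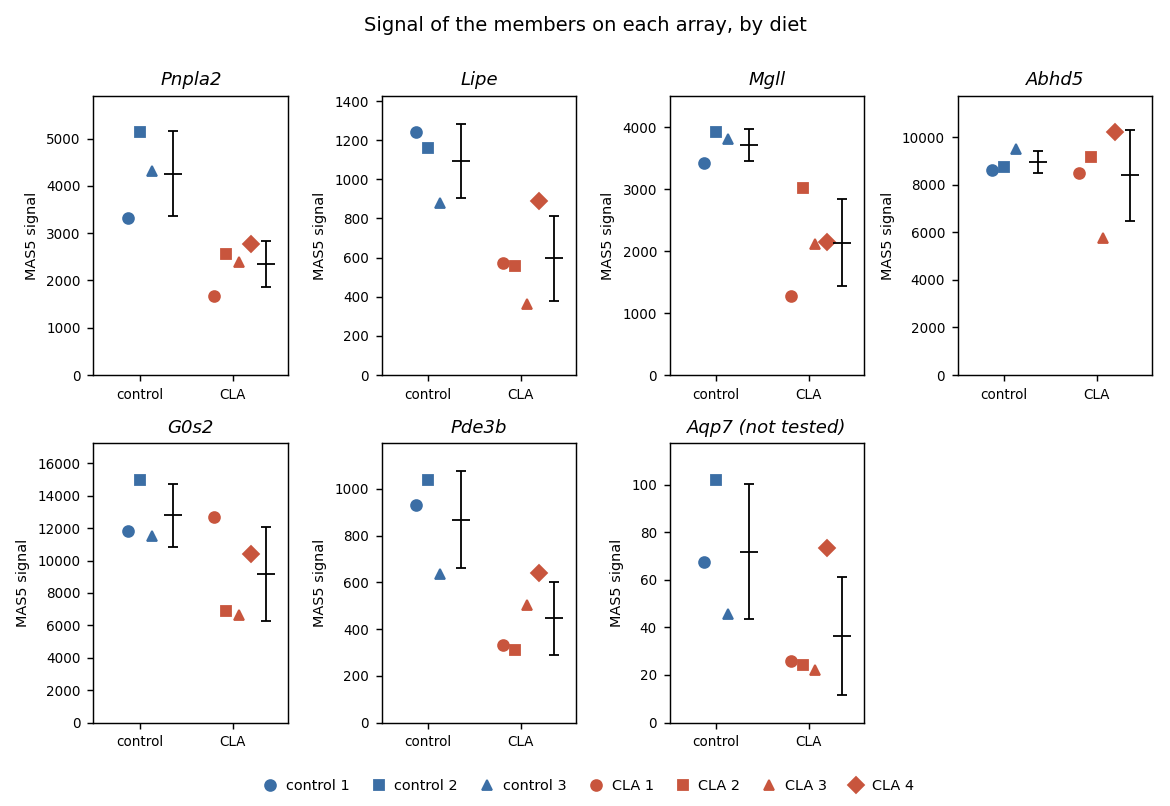
MAS5 signal (vertical axis, linear and from 0) of each measured gene on the 3 control (blue) and 4 CLA arrays (red); symbols mark replicates, and the black bar with whiskers is the group mean with its SD. All CLA points of Pnpla2 and Mgll lie under the control points, Lipe and Pde3b overlap by CLA replicate 4 against control replicate 3, and Abhd5 overlaps widely, with CLA replicate 3 the lowest.

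The cofactors of Pnpla2 had smaller changes than the lipase, a difference that was not tested. Abhd5, which activates Pnpla2 at the droplet surface once released from its coat, read 8631, 8767 and 9497 in control glands and 8494, 9187, 5743 and 10209 in CLA glands. CLA replicate 4 was the highest of all arrays and CLA replicate 3 the lowest, so the groups overlapped widely. The means were 8965 ± 466 (SD, n = 3) and 8408 ± 1911 (SD, n = 4). The log2 change of Abhd5 was -0.12 ± 0.19 (SE), with an unadjusted limma p of 0.522 and an adjusted p of 0.996. Its 95% interval, from -0.54 to 0.29, leaves room for a change in either direction.

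CLA replicate 3, whose Actb 3′ to 5′ ratio was the highest, decides the sign of the Abhd5 value, since without it the log2 change was 0.05. The part of RNA integrity in that reading was not tested. The other bright Abhd5 probe set read 4453, 5927 and 5333 in control and 4227, 4502, 3962 and 4769 in CLA glands, with overlapping groups and a log2 difference of -0.26. The remaining set was dim throughout, 8.23 to 15.2 in control and 24.3 to 33.3 in CLA glands. Its CLA signals all lay above the control signals, a log2 difference of 1.33, and averaging it with the bright sets gave Abhd5 a log2 change of 0.32.

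G0s2, the inhibitor that binds Pnpla2, read 11849.9, 14985 and 11508 in control glands and 12715, 6910, 6625 and 10411 in CLA glands. CLA replicate 1 lay within the control range, and the other 3 CLA glands lay below it. The means were 12781 ± 1916 (SD, n = 3) and 9165 ± 2926 (SD, n = 4). The log2 change of G0s2 was -0.52 ± 0.23 (SE), with a 95% interval from -1.04 to -0.01, an unadjusted limma p of 0.0473 and an adjusted p of 0.904. The change was 0.10 within the 27 titles and -0.75 within the 28 titles, so the 27 titles had the opposite direction. Its unadjusted limma p was 0.0572 with the title number as a block, and 0.0574 to 0.156 without control replicate 1, 2 or 3 or CLA replicate 2 or 3. CLA replicate 3, whose Actb 3′ to 5′ ratio was the highest, had the lowest G0s2, and without it the log2 change was -0.39. The part of RNA integrity in the G0s2 value was not tested.

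Setting Pnpla2 against its cofactors on the same array shows how the glands differed. The log2 value of Pnpla2 minus that of Abhd5, each centred on its mean over the 7 arrays, was 0.14, 0.75 and 0.38 in control glands. In CLA glands it was -0.83, -0.32, 0.26 and -0.37. The groups overlapped through CLA replicate 3, and the difference of the means was -0.74. Pnpla2 minus G0s2 was -0.04, 0.25 and 0.37 in control glands and -1.14, 0.36, 0.32 and -0.12 in CLA glands. CLA replicates 2 and 3 lay within the control range, while CLA replicate 1 had the lowest Pnpla2 with G0s2 at a control level. Between Pnpla2 and Mgll the diet means differed by less than 0.01 on this scale, at -0.00154. Single arrays spread more, at -0.22, 0.21 and 0.00 in control and 0.20, -0.40, 0.01 and 0.19 in CLA glands. These pairs were chosen after the values were seen and were not tested.

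Pde3b, through which insulin lowers cAMP, had a change as large as those of the lipases. It read 929.8, 1039 and 637 in control glands and 329.6, 309, 503 and 639 in CLA glands. Again CLA replicate 4 met control replicate 3, and the other 3 CLA glands lay below all controls. The means were 868 ± 208 (SD, n = 3) and 445 ± 156 (SD, n = 4). The log2 change of Pde3b was -1.00 ± 0.29 (SE), with a 95% interval from -1.64 to -0.36, an unadjusted limma p of 0.00627 and an adjusted p of 0.695. It was -1.50 within the 27 titles and -0.81 within the 28 titles, where the unadjusted limma p was 0.0545. With any 1 array left out the change ran from -1.21, without control replicate 3, to -0.85, without CLA replicate 2. The lipases and an enzyme that restrains them thus had lower mean signal side by side.

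Aqp7, the glycerol channel of adipocytes, was too dim to test. Its brighter probe set read 67.3, 102 and 45.8 in control glands and 25.7, 24.0, 22.2 and 73.5 in CLA glands. CLA replicate 4 lay within the control range and the other 3 CLA glands below it, with a log2 difference of -1.10. Its other probe set read 38.7 to 87.8 in control and 30.2 to 41.9 in CLA glands, with a log2 difference of -0.64. Tested without the filter on dim genes, the brighter set had an unadjusted limma p of 0.0700 and an adjusted p of 0.934. Signals this near the background leave the size of the change uncertain.

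In all, the change was negative in 6 of the 6 members tested, and their log2 changes ran from -1.00 to -0.12 with a median of -0.86. Over all genes tested the median was 0.03 and 44.7% were negative. At an unadjusted limma p under 0.05, 5 of the 6 were lower and 0 higher, against 3.01% lower over all genes. Since the members were chosen with earlier results known, this share is a description and no independent support for a direction. Without any gene past the adjusted threshold, 0 of 6 members were called. The groups did not overlap for 2 of the 6, Pnpla2 and Mgll, where 2.67% of all genes tested had all CLA arrays below all control arrays. Abhd5 was the member that was not lower at an unadjusted p under 0.05. Leaving out any 1 array left 4 or 5 members at that level, the 28 titles by themselves left 3, and the mean of each gene's probe sets left 2.

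No CLA gland was lowest for every member. CLA replicate 1 had the lowest Pnpla2 and Mgll, CLA replicate 2 the lowest Pde3b, and CLA replicate 3 the lowest Lipe, G0s2 and Abhd5. CLA replicate 4 had the highest Pnpla2, Lipe, Abhd5 and Pde3b among the CLA glands. Among the controls, replicate 2 was highest for Pnpla2, Mgll, G0s2 and Pde3b.

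Adipocyte markers had lower signal alongside the members. Of 10 listed, 9 were measured and tested, and all 9 had a negative change, from -2.04 to -0.33 with a median of -1.60. At an unadjusted limma p under 0.05, 7 of these markers were lower, against 3.01% of all genes tested. Their summed signal was 11758 to 15541 in control and 3919 to 11739 in CLA glands, and none was at 0, the lowest single signal being 14.2. The marker score, the mean of their centred log2 values, was 0.51, 1.03 and 0.76 in control and -1.10, -0.89, -0.70 and 0.39 in CLA glands. CLA replicate 4, the array that met the controls for Lipe and Pde3b, also had the highest adipocyte score of its group. At 0.39 that score was still below the lowest control score, 0.51. Pnpla2, Mgll and G0s2 nevertheless lay below all controls on that array, and Abhd5 above them. The part of adipocyte content in these readings was not tested.

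**Figure D2:**
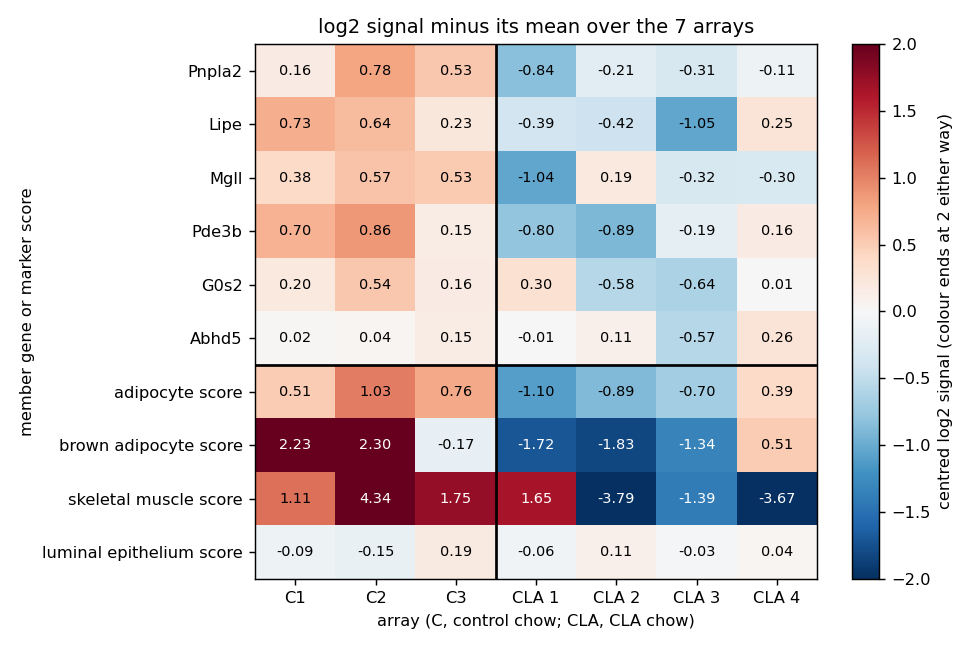
Centred log2 signal (the log2 value minus its mean over the 7 arrays, as number and colour) of the 6 tested members and of 4 marker scores, with 3 control arrays left of the vertical line and 4 CLA arrays right of it. Pnpla2 and Mgll are above and below their mean much as the adipocyte score is, except for CLA replicate 4 and, for Mgll, CLA replicate 2, while Abhd5 stays near 0 apart from CLA replicate 3 at -0.57.

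Other cell types differed between arrays too. All 8 muscle markers were lower at an unadjusted limma p under 0.05, with summed signals of 9355 to 81545 in control and 339 to 13927 in CLA glands and none at 0. The muscle score was 1.11, 4.34 and 1.75 in control and 1.65, -3.79, -1.39 and -3.67 in CLA glands. CLA replicate 1 lay within the control range for muscle and had the lowest Pnpla2 and Mgll of all arrays. All 6 brown adipocyte markers were lower at that level as well, with scores of 2.23, 2.30 and -0.17 in control and -1.72, -1.83, -1.34 and 0.51 in CLA glands, summed signals of 3262 to 16572 and 801 to 4825, and none at 0. On the brown adipocyte score CLA replicate 4 lay above control replicate 3, the pair of arrays that also overlapped for Lipe and Pde3b. Luminal epithelial markers, 0 of 8 at that level, summed to 85501 to 106619 in control and 91939 to 98897 in CLA glands. Among basal epithelial markers 3 of 6 were higher, and of the 5 each for macrophage, endothelium and fibroblast 0 were at that level. The part of muscle and brown fat in the members' changes was not tested.

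Each member was next set against the adipocyte score of its own array, to see whether it differed between the diets by more or less than adipocyte markers. The score itself differed by -1.34. Relative to it, all 6 members had less negative changes, by 0.34 for Pde3b, 0.41 for Lipe, 0.48 for Pnpla2, 0.48 for Mgll, 0.82 for G0s2 and 1.22 for Abhd5. The markers themselves spread widely around the score, and Cebpa at -0.38 and Acvr1c at -0.33 had smaller log2 changes than every lipase. The spread of the CLA glands, an SD of 0.33 to 0.76 by member, was close to or above these values except for Abhd5. Only for Abhd5 did the groups not overlap, with -0.50, -0.99 and -0.61 in control and 1.10, 0.99, 0.13 and -0.13 in CLA glands. The score alone, at 0.51 to 1.03 in control and -1.10 to 0.39 in CLA glands, was also separate by diet. A gene flat over the arrays would therefore separate in the same way, and how many genes do so was not counted. The two-sided exact permutation p for Abhd5 was 0.0571, the smallest that the form of the test used here can give with 3 against 4 arrays. For the other 5 members the exact permutation p ran from 0.114 to 0.343, and adjusted over the 6 members every exact p was 0.343. Within the 27 titles the Abhd5 difference was 1.59, and within the 28 titles 1.13.

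Single arrays set the size of several of these differences from the score. Without CLA replicate 1 that of Lipe was 0.23 and that of G0s2 0.47. Mgll had 0.19 without CLA replicate 2 and 0.78 without CLA replicate 4. Without control replicate 3 Lipe had 0.26 and Pde3b 0.14, without control replicate 1 they had 0.64 and 0.53, and Pde3b had 0.22 without CLA replicate 3. The values of Pnpla2 and Abhd5 moved by less than 1.5 times with any 1 array left out.

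**Figure D3:**
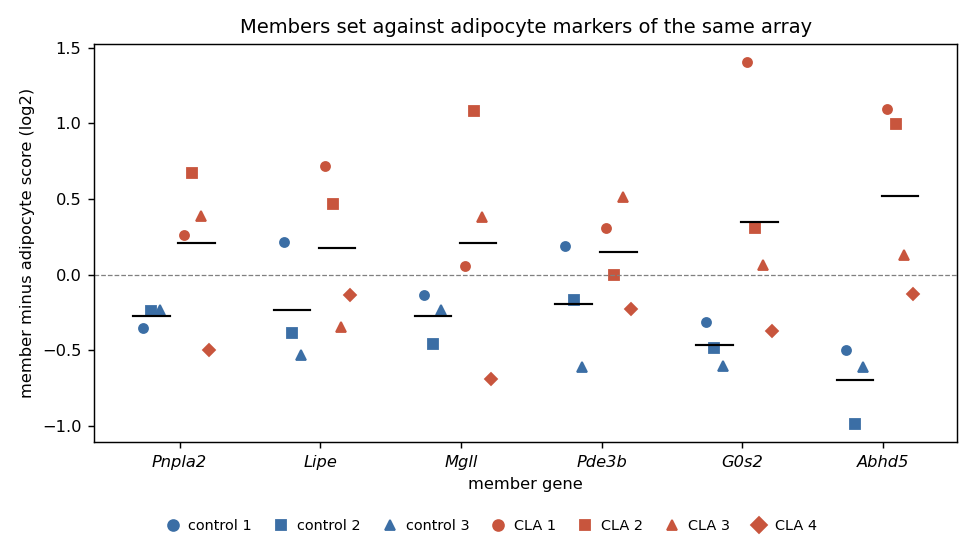
Centred log2 signal of each tested member minus the adipocyte marker score of the same array (vertical axis), for 3 control (blue) and 4 CLA arrays (red), with black lines at the group means. The Abhd5 points of the diets lie apart, from -0.99 to -0.50 in control and from -0.13 to 1.10 in CLA glands, and those of the other members overlap. The adipocyte score alone is also separate by diet, so a gene flat over the arrays would lie apart too.

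The rest of the pathway was read from a list of 55 other genes, of which 50 were measured and 43 tested. Of the 43, 12 were lower and 0 higher at an unadjusted limma p under 0.05, against 3.01% lower and 2.38% higher over all genes tested. All CLA arrays lay below all control arrays for 6 of the 43, against 2.67% of all genes tested. The list was chosen with earlier results known, so these shares are a description alone. The median log2 change was -0.16, and 0 of the 43 passed after adjustment (limma adjusted p from 0.363 to 0.999). The genes at an unadjusted p under 0.05 included 5 of the 6 droplet genes tested, while of the 8 insulin signalling genes and the 4 other phosphodiesterases 0 were at that level. The listed genes that were not measured were not analysed here. Cidea is also on the brown adipocyte marker list, so the lists are not separate there.

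On the lipid droplet surface, Cidec, which helps droplets fuse in white adipocytes, had a log2 change of -2.14 ± 0.45 (SE). Its signals were 1177, 1341 and 849 in control and 215, 123, 238 and 615 in CLA glands, without overlap. Plin4, a droplet coat protein, had -1.45 ± 0.36 and no overlap. Cidea, a relative of Cidec found in brown fat, had -3.30 ± 0.82 with overlapping groups. Hilpda, a further inhibitor of Pnpla2, was the droplet gene with a positive value, 0.34 ± 0.25. Limma's adjusted p over all genes was 0.423 to 0.952 for these droplet genes.

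Among other hydrolases of neutral lipid, Ces1d, a carboxylesterase of adipocyte droplets, had a log2 change of -2.41 ± 0.51 (SE). It read 1339, 1559 and 666 in control and 174, 94.3, 236 and 502 in CLA glands, without overlap. Pnpla3, a relative of Pnpla2, had -1.50 ± 0.52, and Lipa, the lysosomal acid lipase, -0.52 ± 0.27. Of the proteins that handle the products, Fabp4, which carries fatty acids and binds Lipe, had -1.30 ± 0.25, and Fabp5 0.25 ± 0.16. Fabp4 read 29223, 31236 and 25087 in control and 10137, 8171, 11123 and 19323 in CLA glands, without overlap.

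Upstream of the lipases, most genes of the cAMP side had changes near 0. Of these, 1 of 12 was lower at an unadjusted limma p under 0.05, Prkar2b, a regulatory subunit of protein kinase A abundant in fat, at -0.74 ± 0.31. Adcy7 and Adcy4, adenylyl cyclases, had 0.27 ± 0.27 and 0.26 ± 0.28. The median of these 12 was -0.06. On the inhibitory G protein side, Ptger3, a prostaglandin E receptor that restrains lipolysis, had -1.06 ± 0.30, reading 585, 767 and 494 in control and 268, 207, 262 and 491 in CLA glands, so the groups were separate by a narrow margin. Gnai1, an inhibitory G protein subunit, had -1.08 ± 0.46 with CLA replicate 4 above all controls, and Hcar1, the lactate receptor, -1.73 ± 0.84.

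Of the genes of natriuretic peptide signalling, which raises cGMP in fat cells, Npr3, the clearance receptor, had -1.41 ± 0.51 and Prkg1, the cGMP-dependent kinase, -0.20 ± 0.22. Among insulin signalling genes Irs2 had -0.39 ± 0.20, with separate groups, Irs1 -0.25 ± 0.21 and Akt1 0.25 ± 0.19. The phosphodiesterases other than Pde3b had smaller values, -0.22 ± 0.26 for Pde4b, -0.16 ± 0.25 for Pde8a and 0.15 ± 0.40 for Pde4a. The differences between Pde3b and these were not tested.

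**Figure D4:**
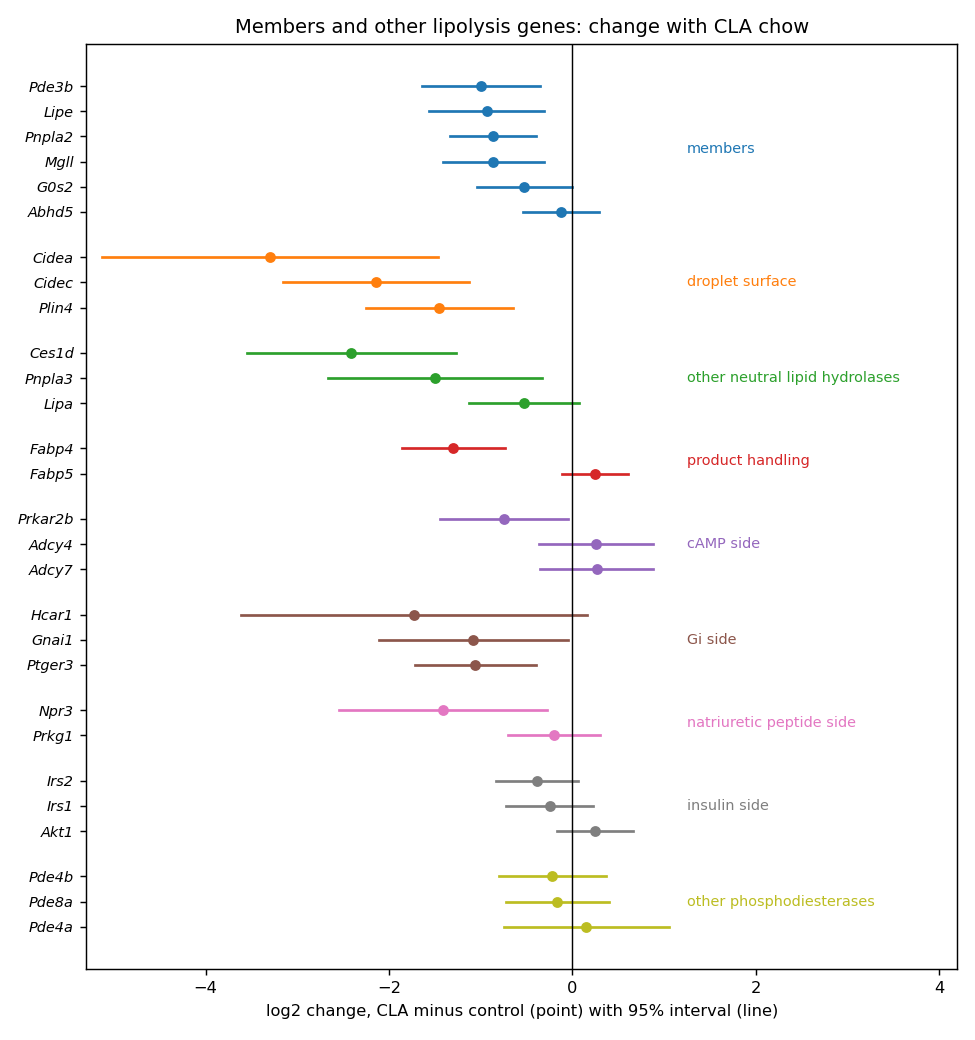
Log2 change, CLA minus control (horizontal axis, points) with 95% intervals (lines) for the 6 tested members and, by role, the other pathway genes of smallest p, up to 3 per role. Intervals of Pde3b, Lipe, Pnpla2 and Mgll end below 0, that of G0s2 ends at -0.01, and those of Abhd5, the insulin genes and the other phosphodiesterases include 0; no gene passed after adjustment over all genes.

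The genes other than members whose pattern over the 7 arrays lay closest to each lipase were found by the root mean square difference of centred log2 values. For Pnpla2 these were Adig, an adipocyte gene and 1 of the markers above, at 0.14, the fatty acid transporter Slc27a1 at 0.15 and the acyltransferase Agpat3 at 0.17, where the median over the genes tested was 0.57. For Lipe they were Slc2a4, the insulin-responsive glucose transporter, at 0.10, Gpd1, which makes glycerol 3-phosphate, at 0.16 and Rasd1 at 0.16, against a median of 0.67. For Mgll they were Plcd3, Heph and Zfp784, at 0.21, 0.23 and 0.23, against a median of 0.60. Between the members, Pnpla2 and Mgll lay 0.22 apart, so that Pnpla2 was nearer to Mgll than Heph and Zfp784 were, and Pnpla2 and Lipe 0.44. These distances rest on 7 arrays that share 1 diet contrast and describe the arrays alone.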

How the data were processed

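RNA of 3 control and 4 CLA mouse glands was labelled with biotin for Affymetrix arrays of 1 colour, per the labels' protocols. The deposited intensity values are linear MAS5 signals, as the submitters' processing notes name that tool. The sources used here do not give its version or the authors' annotation. Each array had the same mean after trimming 2% at each end, so the values were used as scaled, and every change is relative to the other transcripts of a gland. MAS5 signals near the background are uncertain in size.

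Signals under 1 were set to 1, log2 was taken without a pseudocount, and 64 control probe sets were left out. Of 45101 probe sets, 34945 had 1 symbol, 932 several and 9160 none. For 34741 the symbol was looked up by Entrez identifier in a RefSeq table of GRCm38.p6, whether or not it changed. A gene was represented by its probe set of highest mean log2 signal, and the 12497 genes whose mean reached the 40th percentile over probe sets were tested and 5696 were not. Limma 3.58.1 in R 4.3.3 (lmFit, eBayes with trend) fitted CLA minus control, two-sided, without covariates, with Benjamini-Hochberg adjustment over all genes tested, a threshold of 0.05 and intervals at 95%. A check on simulated data asked only whether the fit returned the mean of known changes, and it does not bear on the number of calls here. Exact permutation tests (scipy 1.17.1) ran over all splits of the arrays. Every sample was taken to be a different animal, since the labels call each a mouse.

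The members, marker lists and pathway list were chosen with earlier results of these data known. Named genes were the members, the 3 pathway genes of smallest p per role and the 3 genes nearest to each lipase. Hilpda was chosen after its value was seen. Alternatives were quantile normalization, median centring, added pseudocounts (16 or 64), averaged probe sets, no filter, a 60th percentile filter, eBayes without trend or robust, a block on the title number, the 28 titles by themselves, and leaving out every array in turn. Figures used matplotlib 3.10.9.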

Additional observations from a re-analysis of the deposited data

Results flagged for a closer look

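Both values that stood apart from the other CLA glands came from CLA replicate 4 and from dim probe sets. The brighter Aqp7 probe set read 73.5 there, against 22.2 to 25.7 on the other 3 CLA arrays. The dimmest Abhd5 probe set read 33.3 there, against 24.3 to 25.8 on the others. Each was marked because the gap to the nearest array, divided by the range of the 4 CLA arrays, was 0.930 and 0.832, above Dixon's critical value for 4 samples at 95%. Chance marks about 1 in 20 groups.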

How the results depend on the processing

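The log2 changes of Pnpla2, Lipe, Mgll, G0s2 and Pde3b kept their negative sign and had a limma adjusted p above the threshold under all 18 alternatives run for each. As means of probe sets, Pnpla2 had -0.51 and Mgll -0.49, and Lipe and Mgll were no longer at an unadjusted limma p under 0.05 (0.0814 and 0.0803). G0s2, with 1 probe set, kept its change of -0.52, and its unadjusted limma p was 0.0516 in that fit over 11654 genes. The log2 change of Abhd5 was 0.32 as the mean of its probe sets, which include a dim set with a positive difference. It ran from -0.23 to 0.05 with an array left out, the 0.0496 being without CLA replicate 3. The members lower at an unadjusted p under 0.05 were 2 of 6 as means of probe sets and 3 within the 28 titles, where 5 arrays remain. Other pathway genes higher at that level numbered 1 after median centring and 0 to 1 with an array left out. Differences from the adipocyte score kept their sign under all 14 alternatives run for each, but not their size. With a pseudocount of 64 they were 0.23 for Pnpla2, 0.22 for Lipe, 0.24 for Mgll and 0.18 for Pde3b, as means of probe sets 0.95 for Pnpla2, 0.25 for Lipe and 0.97 for Mgll, and within the 28 titles 0.55 for G0s2. No paired analysis was possible because the labels give no replicate numbers that the diets share. With the title number as a block the log2 change of Pnpla2 was -0.91 and no adjusted call changed, while the members at an unadjusted limma p under 0.05 went from 5 to 4, without G0s2 (0.0572), and the other pathway genes from 12 to 11.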
